A study of Mus musculus with 8 samples.

Results

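Mouse liver 36 h after partial hepatectomy was compared with liver 24 h after it. Partial hepatectomy is the surgical removal of part of the liver, after which the remaining hepatocytes, mostly quiescent until then, enter the cell cycle. RNA was read on Agilent 1-colour microarrays labelled with Cy3. Of the 8 arrays of the series 4 enter the comparison, with 1 Mxcre-negative and 1 Mxcre-positive liver at each time. The genes described are the 13474, of 18316 named on the array, with signal well above background in 2 or more of these 4 livers.

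Both genotypes shared the strain, 129/SV/B6, and the treatment. Irradiation and a bone marrow transplant preceded the experiment by 2 months, and poly(IC), a mimic of double-stranded RNA, was given 1 week before the liver was taken. Mxcre is a Cre recombinase under the interferon-responsive Mx promoter, which poly(IC) switches on in hepatocytes and in many other cells, so that deletion is not limited to hepatocytes. The series design gives 4 livers as Survivin-deleted and 4 as Survivin wild type. The labels name the sex as male or female without assigning it, and the ages and the donors of the marrow are not given in the sources used here. The labels do not say whether livers of more than 1 animal were pooled for an array. The 4 groups are Mxcre-negative at 24 h, Mxcre-positive at 24 h, Mxcre-negative at 36 h and Mxcre-positive at 36 h, with 1 array each.

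Both 24 h arrays lay on 1 slide and both 36 h arrays on the other, so slide and time cannot be told apart. A level below is the log2 of a gene's processed signal minus the array's 75th percentile, so that a difference of 1 is 2-fold. Each error is the standard error (SE) of a limma model with time and genotype, fitted on all 8 arrays, and each adjusted p is limma's after Benjamini-Hochberg adjustment over the 13474 genes. With 1 array for each genotype and time, these p-values measure how steadily a difference repeated between the genotypes, not the spread between livers treated alike. Birc5, which encodes Survivin, had a level of -0.48 in Mxcre-negative and -3.42 in Mxcre-positive liver at 24 h, and of 1.61 and -1.51 at 36 h. It was thus lower in the Mxcre-positive liver of each pair. Whether its probe lies within the deleted stretch is not given in the sources used here.

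DNA replication starts in G1 phase with the licensing of origins. The origin recognition complex, Cdc6 and Cdt1 load the Mcm2-7 helicase there, which is fired at the start of S phase by Cdc45 and the GINS complex. E2f transcription factors, held back by the pocket proteins of the retinoblastoma family until cyclin-dependent kinases release them, switch on most genes of this machinery. Mitotic genes are switched on later in the cycle by the MuvB complex with Mybl2 and Foxm1, through CHR elements in their promoters. In regenerating mouse liver, hepatocytes pass through S phase and then mitosis in a partly synchronous wave. The circadian clock, which runs in hepatocytes as well, acts through E-boxes bound by Clock and Arntl and D-boxes bound by Dbp, Tef and Hlf.

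The promoters of the 4 replication genes with the largest differences that have an entry in the promoter table, and of 1 clock gene, are shown because the report turns on these genes. Each is 250 bases before to 50 bases after the annotated start, read 5′ to 3′ on the gene's strand from RefSeq's GRCm38.p6 table. Dscc1 and Wee1, whose differences ranked among these, are named only. Capitals in the replication promoters mark the E2F letters TTTCCCGC, TTTCGCGC, TTTGCCGC or TTTGGCGC and the CCAAT box CCAAT, on either strand and with overlaps counted. Cdc6 lies at chr11:98907901-98908200 (plus strand), the first of the 2 Uhrf1 windows at chr17:56303087-56303386 (plus), Mcm6 at chr1:128359656-128359955 (minus) and Mcm5 at chr8:75109259-75109558 (plus). In Per3, at chr4:151044616-151044915 (minus), capitals mark the D-box letters TTATGNAA, and the E-box letters CACGTG were also searched.
Cdc6: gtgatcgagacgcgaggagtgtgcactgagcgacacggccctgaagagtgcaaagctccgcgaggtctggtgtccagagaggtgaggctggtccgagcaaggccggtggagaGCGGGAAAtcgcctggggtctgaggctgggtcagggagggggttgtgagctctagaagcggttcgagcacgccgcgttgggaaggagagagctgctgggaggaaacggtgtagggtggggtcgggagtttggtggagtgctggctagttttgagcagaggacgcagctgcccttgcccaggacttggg
Uhrf1: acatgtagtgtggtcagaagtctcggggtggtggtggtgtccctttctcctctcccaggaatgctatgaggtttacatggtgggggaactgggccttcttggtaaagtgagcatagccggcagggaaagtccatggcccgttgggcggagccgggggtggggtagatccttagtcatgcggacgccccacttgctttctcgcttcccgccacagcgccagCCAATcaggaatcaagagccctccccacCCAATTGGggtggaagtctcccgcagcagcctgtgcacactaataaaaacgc
Mcm6: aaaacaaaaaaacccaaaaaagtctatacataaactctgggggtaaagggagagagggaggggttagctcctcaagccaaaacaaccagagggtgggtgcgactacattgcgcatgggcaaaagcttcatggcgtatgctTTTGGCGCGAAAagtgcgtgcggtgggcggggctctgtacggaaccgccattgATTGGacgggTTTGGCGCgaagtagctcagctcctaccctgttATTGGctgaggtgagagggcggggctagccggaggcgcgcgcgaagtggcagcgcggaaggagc
Mcm5: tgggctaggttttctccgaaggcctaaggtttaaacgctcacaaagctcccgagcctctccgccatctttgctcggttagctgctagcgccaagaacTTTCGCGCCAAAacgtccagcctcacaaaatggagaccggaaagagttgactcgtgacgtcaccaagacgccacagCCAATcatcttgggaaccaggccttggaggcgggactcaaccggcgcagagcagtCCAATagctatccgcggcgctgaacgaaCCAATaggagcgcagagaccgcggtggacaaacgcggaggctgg
Per3: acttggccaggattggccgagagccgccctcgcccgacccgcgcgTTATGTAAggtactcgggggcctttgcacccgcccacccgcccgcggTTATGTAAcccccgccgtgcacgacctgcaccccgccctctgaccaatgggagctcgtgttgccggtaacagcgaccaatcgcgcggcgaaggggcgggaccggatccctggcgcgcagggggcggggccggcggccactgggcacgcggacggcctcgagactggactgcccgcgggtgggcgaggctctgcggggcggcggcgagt

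The Mcm6 window held 3 E2F matches, at -110, -106 and -47 from the start, of which the first 2 overlap. Mcm5 held 2 overlapping E2F matches at -153 and -149, and Cdc6 held 1 at -138. In the Uhrf1 window these letters did not occur, and 3 CCAAT boxes did. Of the windows of the replication genes 24 of 90 (26.7%) held an E2F match, against 744 of 32851 (2.26%) of all windows in the table. Among the windows of the mitosis genes 7 of 79 (8.86%) held one, while 48 of 79 (60.8%) held the CHR letters TTTGAA or TTCGAA, found in 16.7% of the replication windows and 19.2% of all windows. CCAAT boxes were in 52.2% of replication, 69.6% of mitosis, 75% of clock and 37.4% of all windows. Promoters were found for 75 of the 89 measured replication genes and 72 of the 86 mitosis genes. A match is a run of letters and not a bound site.

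From 24 to 36 h, 25 genes rose and 5 fell (limma adjusted p of 0.05 or less), which is 0.186% and 0.0371% of the genes tested. Of the 25 that rose, 18 belong to the lists of mitosis genes and 1, Hat1, to the lists of replication genes. By size alone, 221 genes (1.64%) were at least 2-fold higher at 36 h in both genotypes, 36 of them replication and 64 mitosis genes. Since whole liver was read, more cells in a phase and more RNA per cell cannot be told apart. At least 2-fold lower in both were 154 genes (1.14%), of which 0 were replication genes and 1 a mitosis gene. Over all genes the median difference was -0.02, and 62.9% had the same sign in both genotypes, 4021 of 13474 higher in both and 4452 lower in both. Limma gave an unadjusted p under 0.05 to 968 genes higher and 1099 lower at 36 h, and the smallest adjusted p was 0.0142.

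The calls were few and depended on the whole set of arrays. Without any 1 of the 4 arrays of 24 and 36 h, 0 genes were called higher, and with these 4 arrays alone, which leave 1 residual degree of freedom, 0 were called in either direction (777 higher and 981 lower at an unadjusted p under 0.05). With normexp background correction, which adds an offset of 50 to each signal, 0 were called as well. The lists are therefore described by size first, with the test beside it.

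**Figure D1:**
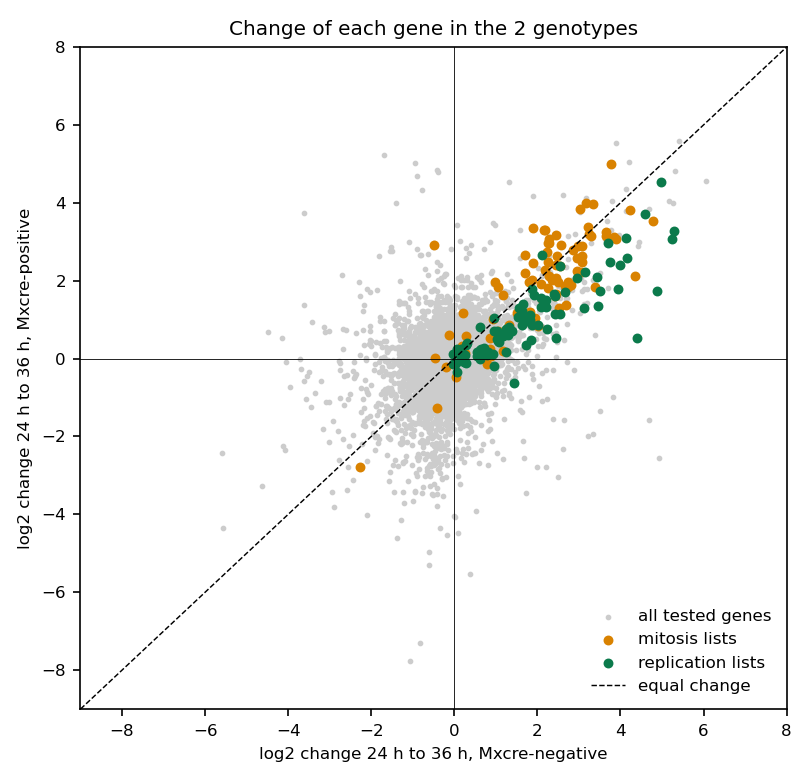
Each point is 1 of the 13474 genes tested, with its log2 difference between 36 h and 24 h in Mxcre-negative liver on the x axis and in Mxcre-positive liver on the y axis. Mitosis genes are orange, replication genes green, all other genes grey, and the dashed line marks an equal difference. Most replication genes lie below the line, with 81 of 89 smaller in Mxcre-positive liver.

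Replication genes were higher at 36 h as a group, and by more in Mxcre-negative liver. Of 94 listed genes 89 were tested, 85 had a positive mean difference and 79 a positive one in both genotypes. Over all 13474 genes these counts were 6439 and 4021. The median difference of the 89 was 1.24, with 1.63 in Mxcre-negative and 0.81 in Mxcre-positive liver, against -0.02 over all genes. At least 2-fold higher were 59 in Mxcre-negative liver, 37 in Mxcre-positive liver and 36 in both, against 480, 497 and 221 of all genes. Of the 89, 1 gene passed over all genes and 12 were higher at an adjusted p under 0.1. At an unadjusted limma p under 0.05, 61 were higher, against 968 of all genes. Restricted to the 80 members above background on all 4 arrays the median was 1.04, and 5 members were above background at 36 h only and so had to differ. With normexp the median was 0.67, and 11 of the 89 were past 2-fold in both genotypes.

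**Figure D2:**
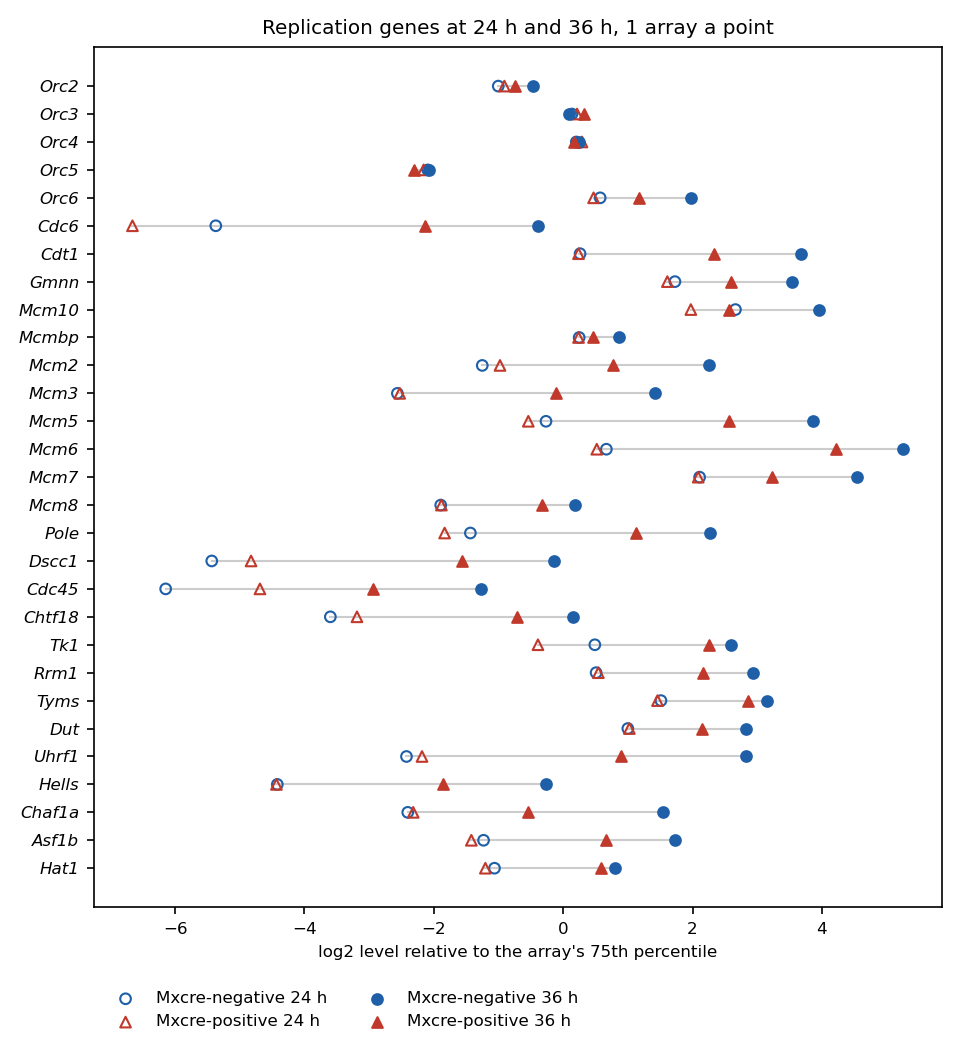
The log2 level, relative to the array's 75th percentile, of 29 replication genes on each of the 4 arrays, with open symbols for 24 h, filled symbols for 36 h, circles for Mxcre-negative and triangles for Mxcre-positive liver. Each point is 1 array, so there are no error bars. Levels of different genes are read by different probes and are not to be compared with each other. Mcm6 lies at 0.67 and 0.52 at 24 h and at 5.26 and 4.22 at 36 h, while Orc3, Orc4 and Orc5 lie close together on all 4 arrays.

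The Mcm helicase, which unwinds DNA ahead of the fork, had the largest median difference among the roles of the replication lists. All 6 measured genes were at least 2-fold higher in both genotypes, with a median of 2.91 (3.74 in Mxcre-negative, 2.08 in Mxcre-positive liver). Over all genes the 2-fold share was 1.64%. Mcm6 had levels of 0.67 and 0.52 at 24 h and of 5.26 and 4.22 at 36 h, in Mxcre-negative and Mxcre-positive liver in that order, here and below. Both 36 h arrays were high and both 24 h arrays low, with the Mxcre-negative 36 h array the highest, a difference of 4.15 ± 0.61 (SE, n = 2 arrays a time, limma adjusted p = 0.110). Mcm5 was -0.27 and -0.54 at 24 h and 3.86 and 2.56 at 36 h (3.61 ± 0.67, adjusted p = 0.144). Mcm3 was -2.56 and -2.53, then 1.41 and -0.12 (3.19 ± 0.49, adjusted p = 0.113). Both 36 h arrays were above both 24 h arrays, with Mxcre-negative the higher, also in Mcm2 (2.62 ± 0.50), Mcm7 (1.79 ± 0.41) and Mcm8 (1.82 ± 0.21, adjusted p = 0.0671), a helicase relative outside the Mcm2-7 ring. Mcm8 differed less between the genotypes at 36 h, at 0.18 and -0.32. Mcm4 was not measured. Of all 13474 genes 3232 had both 36 h arrays above both 24 h arrays, and 3531 had both below. Among the 89 replication genes 74 and 0 did.

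Loading factors differed by gene. Cdc6, the ATPase that closes the Mcm ring around DNA, was not well above background on either 24 h array (measured means of -5.37 and -6.66) and was -0.38 and -2.14 at 36 h. It was at least 9.05-fold higher at 36 h, where at least N-fold sets the 36 h level against the lowest signal that counts as well above background (limma adjusted p = 0.0814). Where a gene's own dim signal lay above that lowest signal, it was used as measured, and the figure is then no strict lower bound. This held for Hells and Ccne2 on the Mxcre-positive 24 h array and for Plk4 on the Mxcre-negative 24 h array. An adjusted p beside such a bound, here and below, is that of the measured difference and not of the bound. The measured difference includes the signals that were not well above background. Cdt1, which brings the helicase to the origin, was 0.26 and 0.24, then 3.68 and 2.33 (2.76 ± 0.32, adjusted p = 0.0678). Geminin (Gmnn), which binds Cdt1 and blocks a second loading, was 1.73 and 1.61, then 3.54 and 2.60 (1.40 ± 0.22). For Mcm10, which joins the helicase at firing, the ranges of the 2 times overlapped, with 2.66 and 1.97 at 24 h and 3.95 and 2.57 at 36 h (0.94 ± 0.27). The Mcm-binding protein Mcmbp differed by 0.42 ± 0.19.

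The 5 tested genes of the origin recognition complex had a median difference of 0.03, and 0 were 2-fold higher in both genotypes. Orc6 had the largest difference, at 0.57 and 0.47 at 24 h and 1.97 and 1.17 at 36 h (1.05 ± 0.22, limma adjusted p = 0.178). Orc2 was -1.0 and -0.91, then -0.46 and -0.74 (0.35 ± 0.17). Orc3, Orc4 and Orc5 had differences of 0.03, -0.03 and -0.07. Orc1 was well above background on fewer than 2 of the 4 arrays and is left out.

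Genes that fire origins and copy the strands were higher at 36 h in 38 of 39 members, 17 of them at least 2-fold in both genotypes. Over all 13474 genes these counts were 6439 and 221. Of 11 genes of origin firing 5 were past 2-fold, of 11 polymerase and primase genes 5, of 10 genes of the clamp, strand joining and single-strand binding 3, and of 7 fork protection genes 4. Pole, the catalytic subunit of the leading-strand polymerase, was -1.44 and -1.83 at 24 h and 2.27 and 1.13 at 36 h (3.34 ± 0.40, limma adjusted p = 0.0696). Dscc1, a subunit of a complex that loads the sliding clamp, was not well above background at 24 h and reached -0.14 and -1.56 at 36 h, at least 12.0-fold higher (adjusted p = 0.0796). Its partner Chtf18 was -3.60 and -3.19, then 0.16 and -0.71 (3.12 ± 0.45, adjusted p = 0.104). Cdc45, the helicase activator, was not well above background at 24 h and was -1.27 and -2.95 at 36 h, at least 5.03-fold higher (adjusted p = 0.192). The 7 fork protection genes had medians of 3.46 in Mxcre-negative and 1.29 in Mxcre-positive liver.

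Within nucleotide supply, the difference between 36 h and 24 h was larger for the deoxynucleotide enzymes than for those of purine, pyrimidine and folate synthesis. Of 8 genes of deoxynucleotide synthesis 5 were at least 2-fold higher in both genotypes, with a median of 1.45, and of 12 genes of the other pathways 0 were, with a median of 0.37. Over all genes the 2-fold share was 1.64%. Tk1, thymidine kinase, was 0.49 and -0.39 at 24 h and 2.60 and 2.26 at 36 h (2.38 ± 0.31, limma adjusted p = 0.0814). Its levels before surgery, 3.89 and 4.04, lay above all 4 of these. Rrm1, the large subunit of ribonucleotide reductase, was 0.51 and 0.54, then 2.93 and 2.16 (2.02 ± 0.32). Thymidylate synthase (Tyms) differed by 1.52 ± 0.31 and the dUTPase Dut by 1.47 ± 0.32, with 36 h above 24 h on every array of both. The same held for 14 of the 20 nucleotide supply genes, against 3232 of all 13474 genes. Rrm2, the partner of Rrm1, was not measured.

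All 14 chromatin assembly genes were higher at 36 h in both genotypes, 6 of them at least 2-fold. Over all 13474 genes these counts were 4021 and 221. Hat1, which acetylates new histone H4 before it is built into chromatin, was -1.06 and -1.20 at 24 h and 0.80 and 0.59 at 36 h. It rose by 1.82 ± 0.16 (limma adjusted p = 0.0426) and was nearly alike in the genotypes. Uhrf1, which carries DNA methylation over to the new strand, was -2.42 and -2.18, then 2.82 and 0.89, with 36 h high on both arrays but far apart (4.16 ± 0.72, adjusted p = 0.131). Hells, a remodelling ATPase, was not well above background at 24 h and -0.27 and -1.85 at 36 h, at least 10.1-fold higher (adjusted p = 0.0899). Chaf1a, the large subunit of the histone chaperone CAF-1, was -2.40 and -2.32, then 1.54 and -0.54 (2.86 ± 0.63). The chaperone Asf1b differed by 2.52 ± 0.29 (adjusted p = 0.0671).

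Of the E2f factors, pocket proteins and their partners 17 of 19 had a positive difference, 5 were at least 2-fold higher in both genotypes and 0 passed. Over all 13474 genes 6439 had a positive difference and 221 were at least 2-fold higher in both. E2f1, an activator, was -2.90 and -3.14 at 24 h and -0.18 and -1.59 at 36 h (2.13 ± 0.77, limma adjusted p = 0.302). E2f8, a repressor that E2f1 itself induces, was -2.58 and -2.57, then -0.12 and -0.46 (2.28 ± 0.47, adjusted p = 0.171). The activator E2f2 differed by 1.61 ± 0.26, and E2f7, above background on 1 of the 24 h arrays, by 1.89 ± 0.24 (adjusted p = 0.0811), a sign that normexp turned. Rbl1, the pocket protein p107, was -3.15 and -2.37, then -0.07 and -1.09 (2.17 ± 0.43). Foxm1 differed by 1.13 ± 0.21 and the MuvB subunit Lin9 by 1.23 ± 0.35. The repressor E2f4 (-0.35 ± 0.12) and the MuvB subunit Lin37 (-0.29 ± 0.12) had negative differences.

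Of 9 tested G1 cyclins and kinases 2, the E cyclins that open S phase with Cdk2, were at least 2-fold higher in both genotypes. Over all genes 1.64% were. Ccne1, cyclin E1, was 1.49 and 1.16 at 24 h and 2.86 and 2.51 at 36 h (1.36 ± 0.46, limma adjusted p = 0.285). It differed by 1.38 in Mxcre-negative and 1.34 in Mxcre-positive liver. Ccne2 was not well above background at 24 h and -1.84 and -2.55 at 36 h, at least 4.54-fold higher (adjusted p = 0.292), and with normexp its sign turned. Of 7 Cdk inhibitors 1 was past 2-fold in both genotypes. Cdkn2c, which blocks Cdk4 and Cdk6, was -0.42 and -0.82, then 0.64 and 0.45 (1.16 ± 0.13, adjusted p = 0.0671). Cdkn1a, the p53 target p21, was 3.96 and 3.50 at 24 h and 2.63 and 3.52 at 36 h, so that the times overlapped (-0.66 ± 0.37). At 0 h it was -0.38 and 0.43. Ccnd1, cyclin D1, was not measured, and Cdk2 was well above background on fewer than 2 of the 4 arrays.

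Genes of DNA repair and the S phase checkpoint, which work at stalled and broken forks, were higher at 36 h as well. Of 24 tested genes 23 were higher in both genotypes and 13 at least 2-fold, with a median of 1.76 (2.33 in Mxcre-negative, 1.12 in Mxcre-positive liver), while 0 passed. Recombination and Fanconi genes made up 12 of these 13. Over the 19 members above background on all 4 arrays the median was 0.96. Of all 13474 genes 4021 were higher in both genotypes and 221 at least 2-fold. Chek1, the kinase of the S phase checkpoint, was not well above background at 24 h and -0.63 and -2.18 at 36 h, at least 8.16-fold higher (limma adjusted p = 0.0671). The exonuclease Exo1 was -3.83 and -3.90, then 0.59 and -1.01 (3.65 ± 0.57, adjusted p = 0.115).

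Mitosis genes made up most of the calls. Of 95 listed genes 86 were tested, 18 rose, 64 were at least 2-fold higher in both genotypes and 81 had a positive difference. Over all 13474 genes these counts were 25, 221 and 6439. The median difference of the mitosis genes was 2.23 (2.27 in Mxcre-negative, 2.04 in Mxcre-positive liver). Higher at an adjusted limma p under 0.1 were 44 of them. At an unadjusted p under 0.05, 71 were higher, against 968 of all genes. Of the 86, 22 were above background at 36 h only and had to differ; the median over the 52 above background on all 4 arrays was 1.95. With normexp the mitosis median was 0.29, 61 of 86 had a positive difference and 3 were past 2-fold in both genotypes, so the size of these differences depended on the background correction and the signal it started from. Among the genes named below, normexp turned the sign of Cenpf, Cep55, Ccnb1 and Aurkb.

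Kinetochore genes were the largest block, with 9 of 26 rising and 19 at least 2-fold higher in both genotypes. Over all genes these shares were 0.186% and 1.64%. Of the 26, 10 were above background at 36 h only and had to differ. The median over the 16 above background on all 4 arrays was 2.20. Spc25, a subunit of the Ndc80 complex that holds microtubules, was -3.41 and -3.42 at 24 h and -0.12 and -0.28 at 36 h, above background on all 4 arrays. The genotypes were nearly alike at both times, and it rose by 3.22 ± 0.14 (limma adjusted p = 0.0142). Nuf2, another subunit of that complex, was -3.08 and -3.59, then -0.54 and -1.22 (2.45 ± 0.19, adjusted p = 0.0354). Ska1, of the complex that follows the microtubule end, was not well above background at 24 h and -1.85 and -2.67 at 36 h, at least 4.53-fold higher (adjusted p = 0.0142). Cenps and Knl1, a centromere protein and the scaffold of the outer kinetochore, were at least 5.39-fold and at least 7.26-fold higher, and Cenpf at least 4.31-fold (adjusted p = 0.0142 to 0.0181). Cenpp and Cenpq, of the inner kinetochore, rose by 2.24 ± 0.12 and 2.22 ± 0.19. Cenph was the largest of the list by size, at -4.12 and -4.07, then 0.66 and -0.53, and just missed the threshold (4.16 ± 0.39, adjusted p = 0.0519).

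Of 10 spindle checkpoint genes 3 rose and 6 were at least 2-fold higher in both genotypes, against 0.186% and 1.64% of all genes. The median difference of the 10 was 2.14, but it was 0.31 over the members above background on all 4 arrays (n = 6). Mad2l1, which holds back anaphase, was -4.33 and -4.18 at 24 h and -1.38 and -1.59 at 36 h, with 1 of the 24 h arrays above background (2.77 ± 0.14, limma adjusted p = 0.0142). Kntc1, which brings the checkpoint to the kinetochore, rose by 3.44 ± 0.20 and Sgo1, the guardian of centromere cohesion, by 3.65 ± 0.30, each above background on 1 of the 24 h arrays. Bub1 had a difference of -0.84 ± 0.26 by its brightest probe, but its probes ranged from -0.84 to 3.21 and their mean gave 1.19. Probes also disagreed in 3 of the 25 genes that rose. In Spag5 they ranged from 0.04 to 3.47, in Ercc6l from 2.24 to 3.54 and in Cdca3 from 0.96 to 2.17.

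Mitotic cyclins, kinases and spindle proteins followed the same direction. Ccna2, cyclin A2, which serves both S phase and the G2/M transition, was -2.27 and -3.33 at 24 h and 0.18 and -0.16 at 36 h, above background on all 4 arrays. It rose by 2.81 ± 0.20 (limma adjusted p = 0.0309) and reached 2.75 and 2.16 at 48 h. Cdk1, the mitotic kinase, was not well above background at 24 h and -0.85 and -1.5 at 36 h, at least 9.59-fold higher (adjusted p = 0.0637). Its partner Ccnb1, cyclin B1, was at least 2.24-fold higher, at -3.33 and -3.22 at 36 h and 0.76 and 0.75 at 48 h. Plk4, which starts centriole duplication, was at least 4.15-fold higher and passed (adjusted p = 0.0365). The motor Kif4 rose by 2.98 ± 0.15, the spindle proteins Hmmr and Tacc3 by 2.74 ± 0.22 and 2.26 ± 0.18, with 1 of the 24 h arrays above background for Kif4 and Hmmr. Cep55, of the abscission site, was at least 4.10-fold higher and passed. Ncapg and Ncapg2, of the condensins that compact chromosomes, differed by 3.58 ± 0.42 and 3.48 ± 0.37 (adjusted p = 0.0671 and 0.0637), Ncapg with 1 of the 24 h arrays above background. Cdc25c, a phosphatase that activates Cdk1, went the other way as the 1 mitosis gene at least 2-fold lower in both genotypes. It was -3.58 and -2.59 at 24 h and not well above background at 36 h, at least 2.91-fold lower (adjusted p = 0.187).

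All 4 genes of the chromosomal passenger complex, of which Survivin is a member, were at least 2-fold higher at 36 h in both genotypes, and 0 passed. Over all genes 1.64% were at least 2-fold higher in both. Birc5, with the levels given above, had a mean difference of 2.00 ± 0.94 (limma adjusted p = 0.396). It differed by 2.08 in Mxcre-negative and 1.91 in Mxcre-positive liver, and its SE also takes in the 48 h levels of 5.10 and -1.14. Aurkb, the kinase of the complex, was at least 4.48-fold higher (adjusted p = 0.0645). Incenp, the scaffold, was 0.34 and 0.09 at 24 h and 2.09 and 1.25 at 36 h (1.46 ± 0.23), and Cdca8, borealin, -0.54 and -0.87, then 1.91 and 0.79 (2.05 ± 0.28, adjusted p = 0.0923).

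Of the 25 genes that rose 6 are in no list. Lrr1, a substrate receptor that unloads the helicase when forks end, was not well above background at 24 h and -0.96 and -2.29 at 36 h, at least 7.03-fold higher (limma adjusted p = 0.0234). Melk, a kinase of dividing cells, rose by 3.39 ± 0.24 (adjusted p = 0.0323), with 1 of the 24 h arrays above background. Ercc6l, a helicase of anaphase bridges, was at least 4.39-fold higher by its brightest probe (adjusted p = 0.0354). On the mean of its probes the difference was 2.25 and did not pass (adjusted p = 0.0798), and with normexp it was 0.0085. Ube2t, the conjugating enzyme of the Fanconi pathway, was -3.38 and -3.64, then -0.36 and -1.36 (2.65 ± 0.23, adjusted p = 0.0406). Neurl1b, a ubiquitin ligase, was -2.45 and -3.14, then -0.15 and -0.03 (2.71 ± 0.22, adjusted p = 0.0365), the genotypes nearly alike at 36 h. Cdca3, which triggers degradation of the Cdk1 inhibitor Wee1, rose by 2.17 ± 0.18 (adjusted p = 0.0365). Of the 25, 10 were above background on all 4 arrays, 6 on 1 of the 24 h arrays and 9 on neither. These 9 entered the test through their 36 h signal alone. Among genes above background on all 4 arrays, fitted by themselves, 2 were called higher, both in the mitosis lists.

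The 12 h after 36 h set the lists apart. Of the 86 mitosis genes 77 were higher still at 48 h in both genotypes, with a median step of 1.49 in Mxcre-negative and 1.87 in Mxcre-positive liver. Of the 89 replication genes 15 were higher at 48 h than at 36 h in both genotypes and 48 were lower, with median steps of -0.17 and -0.13. Of all 13474 genes 3568 were higher and 4549 lower at 48 h in both genotypes. Among the 25 genes that rose 23 were higher at 48 h in both. From 0 to 24 h the mitosis median step was 0.33 and 0.03. Each of these steps shares the 36 h or the 24 h arrays with the main comparison and has no test of its own here.

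**Figure D3:**
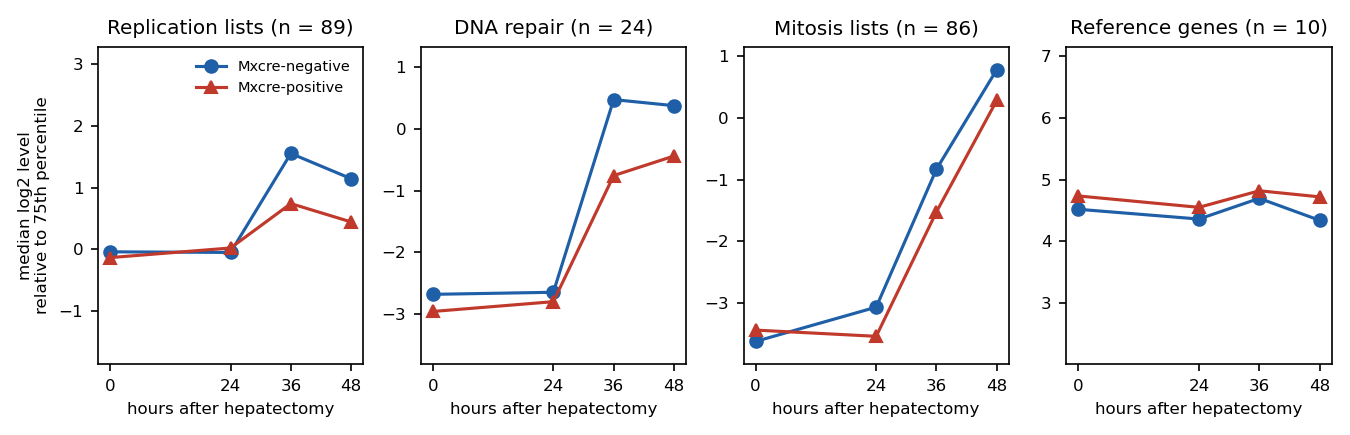
The median log2 level of the replication (n = 89), DNA repair (n = 24), mitosis (n = 86) and reference genes (n = 10) at 0, 24, 36 and 48 h after hepatectomy, relative to the array's 75th percentile, with circles for Mxcre-negative and triangles for Mxcre-positive liver. Each point is 1 array, and the 4 axes span the same number of log2 units. The replication median is highest at 36 h in both genotypes (1.55 and 0.74), the mitosis median is highest at 48 h (0.78 and 0.28), and the reference genes stay between 4.34 and 4.82.

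The difference between 36 h and 24 h was smaller in Mxcre-positive liver for 81 of 89 replication genes (91.0%), against 55.2% of all genes. The median of the Mxcre-positive minus the Mxcre-negative difference was -0.64 over the replication genes, and -0.58 to -0.70 with the array median, quantile normalization or normexp. At 24 h the genotypes stood level in these genes (median Mxcre-positive minus Mxcre-negative 0.01), and at 36 h the median was -0.65. The Mxcre-negative 36 h array was the highest of the 4 for 81 of the 89, against 3687 of all 13474 genes. For DNA repair 21 of 24 genes had the smaller difference in Mxcre-positive liver. For mitosis 54 of 86 (62.8%) did, and there the Mxcre-positive liver was lower at 24 h (median -0.43) as well as at 36 h (-0.69). With 1 array for each genotype and time this difference of differences has no test, and it rests on 4 arrays.

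These 4 arrays also differed in Y-linked signal and in blood cell markers. The Y-linked genes had a summed level, on a linear scale where the array's 75th percentile is 1, of 5.95 and 4.46 at 24 h and of 3.11 and 0.048 at 36 h, and on the Mxcre-positive 36 h array 0 of 4 were above background. Xist, the RNA that coats a silenced X, had levels of 3.55 and 4.27 at 24 h and of 4.44 and 5.24 at 36 h, so that it was read on the arrays with Y-linked signal as well. Whether that bears on the replication, repair or mitosis genes was not tested beyond a fit with the Y-linked level as covariate. That fit called 8 genes higher, 3 of them among the 25 (Ska1, Spc25 and Cenps), and also Uhrf1 (5.36) and Pole (3.98). In the Mxcre-negative pair alone, whose arrays both hold Y-linked signal, 480 genes were at least 2-fold higher and 460 lower, with 59 replication and 68 mitosis genes among the higher.

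**Figure D4:**
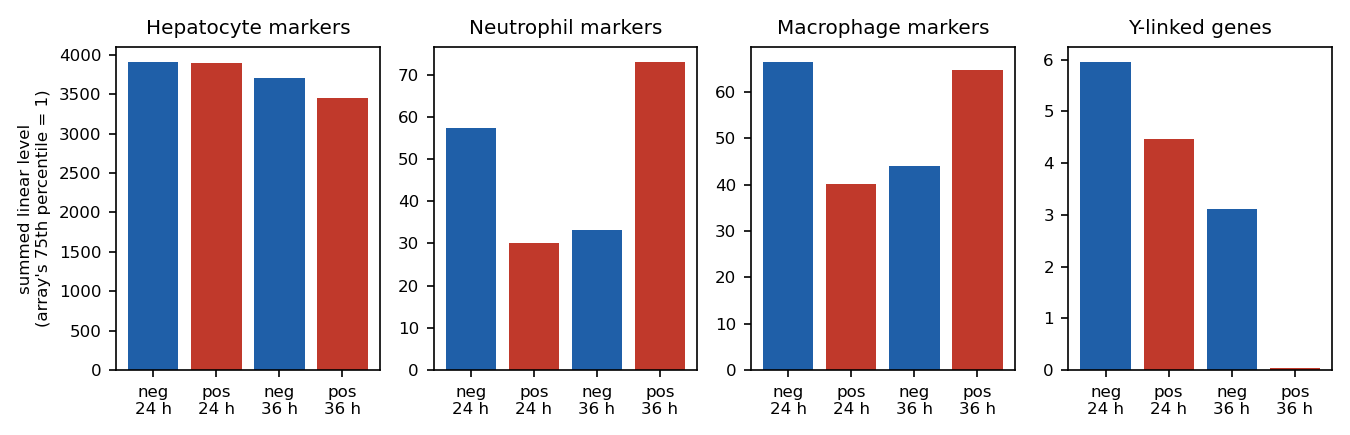
Summed linear level of hepatocyte, neutrophil, macrophage and Y-linked genes on the 4 arrays (array's 75th percentile = 1), with blue bars for Mxcre-negative (neg) and red for Mxcre-positive (pos) liver, 1 array a bar and each axis starting at 0. Hepatocyte markers range from 3446 to 3903. Neutrophil markers are highest on the Mxcre-positive 36 h array (72.9) and lowest on the Mxcre-positive 24 h array (30.2), and Y-linked genes are at 0.048 on the Mxcre-positive 36 h array.

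Liver identity held on all 4 arrays, with 19 of 19 hepatocyte markers above background and a summed level of 3903 and 3891 at 24 h and 3705 and 3446 at 36 h. Their median difference was -0.10, and above 0 with normexp. Neutrophil markers summed to 57.4 and 30.2 at 24 h and 33.1 and 72.9 at 36 h, so that their median difference was -0.49 in Mxcre-negative and 0.98 in Mxcre-positive liver, and 13 of 14 went opposite ways. Macrophage and monocyte markers had medians of -0.56 and 0.60, with 11 of 14 opposite. Over all 13474 genes 5001 went opposite ways. T and NK cell markers were lower at 36 h in both genotypes in 8 of 12 tested genes (median -0.49), B cell markers in 5 of 6 (median -0.28) and erythroid markers in 4 of 5 (median -0.51), against 4452 of all 13474 genes. The summed level of the T and NK cell markers did not fall in both. It was 6.93 and 6.63 at 24 h and 6.66 and 8.58 at 36 h, and their member Nkg7 differed by 0.28 and 2.83. The part of these cells in the results above was not tested. For the interferon-stimulated genes, which poly(IC) induces, the median was 0.14 in Mxcre-negative and 0.81 in Mxcre-positive liver. Higher in both genotypes were 19 of 27, against 4021 of all 13474 genes.

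The 5 genes that fell are in no list. Actn3, the actinin of fast muscle fibres, was -1.34 and -2.21 at 24 h and not well above background at 36 h, at least 7.23-fold lower (limma adjusted p = 0.0181), and at 0 h it was -6.45 and -6.56. High levels on both 24 h arrays alone thus set it apart. Raet1e, a ligand of the NKG2D receptor of natural killer cells, was -2.43 and -1.12 at 24 h and not well above background at 36 h, at least 7.22-fold lower (adjusted p = 0.0142). At 48 h it was back at -1.0 and 0.07, so that the low point was at 36 h alone. Hnf4aos, an antisense transcript at the Hnf4a locus, was -1.85 and -2.12, then -4.38 and -4.37, with 1 of the 36 h arrays above background (-2.39 ± 0.19, adjusted p = 0.0354). Bdkrb2, the bradykinin B2 receptor, was -2.11 and -2.06, then -3.54 and -3.92, above background on all 4 arrays (-1.65 ± 0.15, adjusted p = 0.0426). 4930444G20Rik was at least 1.81-fold lower (adjusted p = 0.0339).

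Clock genes differed in both directions, activators low and outputs high at 36 h. Of 23 tested genes 7 were at least 2-fold higher and 3 at least 2-fold lower in both genotypes, and 0 passed. Over all genes these 2-fold shares were 1.64% and 1.14%. Dbp, a D-box factor and direct output of the clock, was 1.77 and 1.81 at 24 h and 4.14 and 3.23 at 36 h (1.89 ± 0.32, limma adjusted p = 0.129). Its relative Tef was 1.73 and 1.35, then 3.01 and 2.75 (1.34 ± 0.19, adjusted p = 0.10). The repressor Nr1d2 was -0.22 and -0.66, then 0.91 and 0.93 (1.36 ± 0.17, adjusted p = 0.0811). In all 3, both 36 h arrays were above both 24 h arrays, as in 11 of the 23 clock genes and 3232 of all 13474 genes. The period gene Per3 was -4.18 and -5.41, with 1 of these arrays above background, then -2.47 and -2.72 (2.20 ± 0.34), and the outputs Usp2 and Ciart differed by 1.78 ± 0.52 and 1.70 ± 0.52. Wee1, a clock output that also holds back mitosis, was at least 2.10-fold higher (adjusted p = 0.364), and normexp turned its sign and that of Per3.

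Arntl, the partner of Clock, was 0.57 and 0.42 at 24 h and -1.64 and -0.61 at 36 h, low on both 36 h arrays (-1.62 ± 0.29, limma adjusted p = 0.132). Npas2, which can stand in for Clock, was at least 2.58-fold lower and just missed the threshold (adjusted p = 0.0544). Clock itself differed by -0.44 ± 0.12, and the repressor Bhlhe41 was at least 1.76-fold lower. None of the 5 activators had a positive mean difference. These 2 times lie 12 h apart, and the hour of day of surgery or sampling is not given in the sources used here. At 0 h Dbp was 6.43 and 5.19 and Arntl -2.08 and -1.53. Among the clock windows 3 of 24 (12.5%) held the D-box letters, against 3.38% of all windows, and 6 of 24 (25%) the E-box letters, against 17.8% of the replication windows and 7.15% of all windows. The 2 D-box matches of Per3 lie at -205 and -158, and the Dbp window held neither set of letters.

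**Figure D5:**
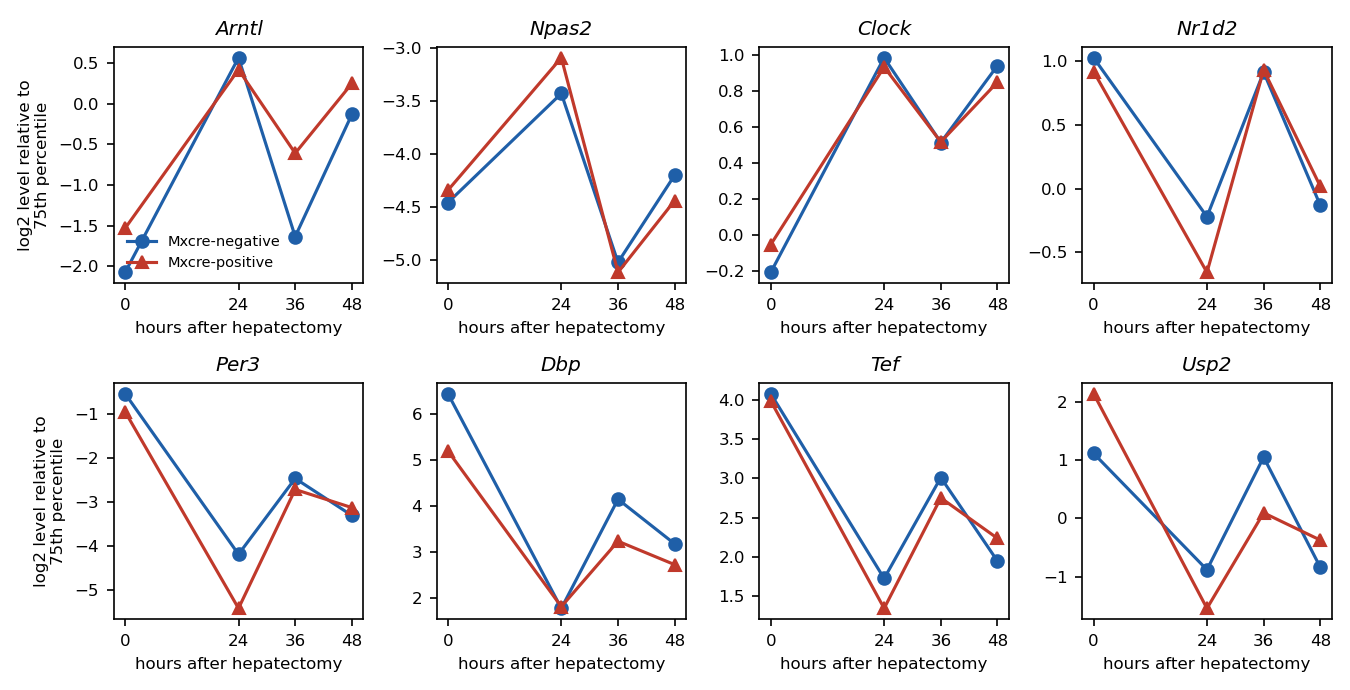
The log2 level of single clock genes at 0, 24, 36 and 48 h after hepatectomy, relative to the array's 75th percentile, with circles for Mxcre-negative and triangles for Mxcre-positive liver and 1 array a point. Dbp is at 1.77 and 1.81 at 24 h and at 4.14 and 3.23 at 36 h, and Arntl is at 0.57 and 0.42 and then at -1.64 and -0.61.

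Metabolic lists differed by less, with 0 genes past the threshold in each. Of 27 genes of fatty acid oxidation and Ppara targets 24 were higher at 36 h in both genotypes, against 4021 of all 13474, with a median of 0.61 and 0 at least 2-fold in both. Vnn1, a pantetheinase that follows Ppara, was 0.83 and 1.39 at 24 h and 1.56 and 2.91 at 36 h (1.13 ± 0.22, limma adjusted p = 0.161). Ppara itself was 3.99 and 3.62, then 4.50 and 4.95 (0.92 ± 0.24), and the peroxisomal enzyme Ehhadh differed by 0.98 ± 0.36. Cholesterol synthesis and uptake genes had a median of 0.46 (0.67 and 0.24 by genotype), with 19 of 25 higher in both, among them the demethylating oxidase Msmo1 (0.83 ± 0.57). Thrsp, which promotes lipogenesis, was 1.09 and 0.05, then 2.68 and 3.35 (2.45 ± 0.44), and Lpin1, a phosphatidate phosphatase, differed by 1.40 ± 0.46.

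Cyp7a1, the first and limiting step from cholesterol to bile acids, was -3.92 and -2.92 at 24 h and -1.19 and 0.23 at 36 h (2.94 ± 0.54, limma adjusted p = 0.142). Both 36 h arrays lay above both 24 h arrays and below the 0 h levels of 3.98 and 3.24. Over all 17 tested bile acid genes, Cyp7a1 included, the median difference was 0.04. In 6 of these 17 both 36 h arrays lay above both 24 h arrays, against 3232 of all 13474 genes. The glycogen synthase Gys2 was 3.90 and 3.68, then 4.92 and 4.87 (1.10 ± 0.14, adjusted p = 0.0741). Ppp1r3c, which directs a phosphatase to glycogen, differed by -1.47 ± 0.36. Elovl3, a male-biased elongase, differed by -2.48 ± 1.19, with -3.15 in Mxcre-negative and -1.81 in Mxcre-positive liver. The part of the Y-linked levels given above in this was not tested.

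Genes of the unfolded protein response were lower at 36 h in both genotypes in 14 of 17 members, against 4452 of all 13474 genes, with a median of -0.43 and 0 past the threshold. Among its members with the largest differences were Sdf2l1 (-0.90 ± 0.42), Pdia4 (-0.72 ± 0.26) and Calr (-0.69 ± 0.19), which help proteins fold in the endoplasmic reticulum. Asns, asparagine synthetase, was 5.53 and 5.17 at 24 h and 4.76 and 3.48 at 36 h (-1.23 ± 0.36, limma adjusted p = 0.243). Acute phase proteins were lower in both genotypes in 16 of 24 (median -0.22), with Serpina3n at -1.06 ± 0.34. Lists near the median of all genes were those of ribosome biogenesis (0.03), immediate early factors (0.05), p53 targets (0.11), growth factors and receptors (-0.07) and the reference genes (0.09). The sign of the first 2 turned with quantile normalization and that of the growth factor list with the array median.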

How the data were processed

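The arrays were scanned and read with Agilent Feature Extraction, 10.7 per the submitters' processing notes and 10.7.3.1 per the file headers. The files hold, per the file headers, the processed signal, an intensity after background subtraction, together with median signals. The deposited value table holds log2 values with a column median of 5.51, and each column correlated at 0.9994 or more with its own array's log2 signal. How its columns were scaled is not given in the sources used here. Of 43379 spots an array 60.2% to 66.0% were well above background and 0 saturated.

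Here log2 processed signal minus each array's 75th percentile was used, probes of a gene were represented by the brightest, and limma 3.58.1 (R 4.3.3) was fitted to all 8 arrays with time and genotype. The fit leaves 3 residual degrees of freedom and was tested on simulated data. The normexp alternative used the median signals in place of the mean signals first planned. Members and gene lists were chosen with earlier results of these data known. Genes named are the largest and the called members of each list and, from the licensing, E2f, G1, inhibitor, passenger and clock lists, any member. Neurl1b, Ube2t, Cdca3, Bub1 and Cdc25c were added after their values were seen. Alternatives covered the samples in the fit, scaling, background, filter, probe choice, a Y-linked covariate and leaving out each array.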

Additional observations from a re-analysis of the deposited data

Results flagged for a closer look

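In some cell type lists and genes the Mxcre-negative and the Mxcre-positive liver differed in opposite directions between 24 h and 36 h. None of these differences was tested, because each genotype and time had 1 array, and the genes, above background on all 4 arrays, are the 6 in each direction with the largest difference between genotypes, chosen for it. Neutrophil markers had a median of -0.49 in Mxcre-negative and 0.98 in Mxcre-positive liver, and macrophage and monocyte markers -0.56 and 0.60.

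Cyp8b1, the sterol 12-alpha-hydroxylase of bile acid synthesis, differed by -0.95 in Mxcre-negative and 5.03 in Mxcre-positive liver. Pdk4, the kinase that turns off pyruvate dehydrogenase, differed by -2.28 and 1.60, and the thioesterase Acot5 by -1.10 and 3.0. Rgs16, a regulator of G protein signalling, differed by -2.31 and 1.98, the channel Asic5 by -0.91 and 4.69 and Cstdc5 by -1.55 and 2.76. Higher in Mxcre-negative liver were Cfd, the complement factor adipsin (3.34 and -1.94), Nat8f5 (2.39 and -1.54), Grip2 (2.23 and -1.05), Xlr4b (0.90 and -2.12) and Fntb (2.88 and -0.29), whose probes ranged from -0.03 to 1.29 in the mean of both genotypes. Cyp4a12a, a male-biased cytochrome, differed by 0.077 and -4.48, and the Mxcre-positive 36 h array is the 1 of these 4 without Y-linked signal. Whether the 2 are linked was not tested.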

How the results depend on the processing

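The count of genes higher at 36 h (25) was 24 with quantile normalization, 28 with the array median, 24 with the deposited table and 30 with all probes averaged. It was 0 with the 4 arrays alone, 4 with no genotype block, 0 with normexp, 2 among genes above background on all 4 arrays, 11 with no filter, 8 with the Y-linked covariate and 0 to 0 with any 1 array left out. For genes lower (5) these were 0, 2, 0, 0, 2 and 1, and 0 to 2 with an array left out, the 2 being without the Mxcre-negative 36 h array and 0 of them among the 5. For mitosis genes higher (18) the counts were 0, 3, 0, 2, 10 and 4, and 0 to 0. Of the 8 genes called with the covariate 3 were among the 25. For replication genes (1, Hat1) the count was 0 with the 4 arrays, no block, quantile normalization, normexp, the deposited table, the stricter filter, no filter and each array left out. It was 2 with the mean of probes, and 2 others with the Y-linked covariate, where Hat1 did not pass. At least 2-fold higher in both genotypes (221) were 28 with normexp, 142 above background on all 4 arrays and 480 in Mxcre-negative liver alone. Lower (154) were 1, 72 and 460, and 248 with no filter. Normexp turned the sign of Cep55 (-0.042), Cenpf (-0.15), E2f7 (-0.044), Ccne2 (-0.022), Cdkn3 (-0.41), Ccnb1 (-0.38), Aurkb (-0.095), Per3 (-0.10) and Wee1 (-0.27), and the mean of probes that of Bub1 (1.19). The cause was not tested. The smallest adjusted p was 0.133 with the 4 arrays, 0.79 with normexp and 0.0449 to 0.119 with an array left out. The array median moved the median of all genes to 0.07. No paired analysis was possible because each group has 1 array; the genotype block stands in the fit.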
